A study of Drosophila melanogaster with 4 samples.

Results

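The exon junction and mRNA export genes examined here are 9 Drosophila genes, chosen by name: mago, tsu, Acn, RnpS1, tho2, thoc5, sbr, Nxt1 and Hel25E. All 9 were found among the 13931 gene rows of the deposited table, which also lists 133 transposon rows. The values are counts of small RNAs bound to the nuclear Argonaute protein Piwi and assigned to each gene, so they measure gene-derived Piwi-interacting RNAs (piRNAs) and not the level of the mRNA. The cells were OSC (ovarian somatic cells), a cultured line from the soma of the Drosophila melanogaster ovary, kept at 26 degrees. All 4 libraries came from cells given an siRNA against Yb, a Tudor-domain protein around which piRNA precursors collect in cytoplasmic bodies. Of these, 2 libraries came from cells with a plasmid for a Yb without its Hel-C domain (Yb ΔHel-C) and 2 from cells with a plasmid for full-length Yb (Yb WT). RNA of 23 to 30 nucleotides was taken from purifications with a Flag antibody, which the series describes as Flag-Piwi. The comparison asks whether deleting Hel-C from Yb alters the set of RNAs that Piwi carries.

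The exon junction complex is laid on spliced mRNA just upstream of each junction and marks the RNA for export, localisation and quality control. In the fly ovary, the core complex with its accessory proteins Acn and RnpS1 is known to be needed for correct splicing of the piwi transcript. The THO complex and the helicase Hel25E (UAP56) load onto RNA during transcription and hand it to the export receptor sbr (NXF1) with its cofactor Nxt1. The same helicase and THO are known to act on piRNA precursors in the fly germline, and Nxt1 also joins nxf2 and Panx in silencing of transposons by Piwi.

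Each group has a single column of RPM values (reads per 1000000 reads), so no difference below has a replicate check and no test between conditions was possible. The columns correspond to totals of 2803305 reads for Yb ΔHel-C and 2955141 reads for Yb WT. A read was worth 0.357 RPM in Yb ΔHel-C and 0.338 RPM in Yb WT. Intervals are exact 95% intervals for counting error only, and reads without molecular identifiers are not independent molecules. A call of 2-fold, higher or lower, needs a log2 fold of 1 or more in size after 0.5 is added to each RPM, a scale that understates the change of genes with few reads. The Yb gene itself, fs(1)Yb, stood at 645 RPM in Yb ΔHel-C and 406 RPM in Yb WT, but plasmid and endogenous RNA cannot be told apart in them. Of the markers of the ovarian soma, all 7 had reads, and 3 of them (piwi, ptc and Fas3) were called 2-fold higher and none lower. Among all genes with a mean of 1 RPM or more, 44.9% were called 2-fold higher and 4.98% lower. With edgeR's TMM or RLE scaling factors, used below, no soma marker was called higher and 1, tj, was called lower. The 7 summed to 10248 RPM in Yb ΔHel-C and 9749 RPM in Yb WT. Reads on tj, the one with the most, were 4481 RPM in Yb ΔHel-C and 6972 RPM in Yb WT. Without tj the sum was 5767 RPM in Yb ΔHel-C and 2777 RPM in Yb WT. The 8 germline markers summed to 33.5 RPM in Yb ΔHel-C and 68.0 RPM in Yb WT, and without orb to 21.4 RPM in Yb ΔHel-C and 25.04 RPM in Yb WT. Of the 6 with a mean of 1 RPM or more, orb and aub were called 2-fold lower and 4 neither, against 4.98% of all genes called lower. With TMM or RLE bam was called lower as well, against 15.3% (TMM) and 15.9% (RLE) of all genes. The germline gene vas had 2 reads in Yb ΔHel-C and 0 in Yb WT.

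Together the 9 genes held 1734 reads (619 RPM) in Yb ΔHel-C and 761 reads (258 RPM) in Yb WT, 2.40 times as much (interval 2.20 to 2.62). The value was higher in Yb ΔHel-C for each of the 9 genes on the authors' totals, a direction shared by 81.0% of the 7577 genes that averaged 1 RPM or more across the columns. All 9 passed that minimum. Hel25E, Acn, tho2, thoc5, RnpS1 and mago were called 2-fold higher, none was called lower, and sbr, tsu and Nxt1 were neither. Among all 7577 genes, 44.9% were called 2-fold higher and 4.98% 2-fold lower. The 9 genes had a median log2 fold of 1.35, and all genes one of 0.89.

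These folds depend on how the columns are scaled, because most genes held a larger share of the reads in Yb ΔHel-C. Of the genes called either way, 90.0% were higher on the authors' totals, 81.8% when scaled to the reads in gene rows, 43.2% with edgeR's TMM factors and 39.9% with its RLE factors. The TMM factors moved the median log2 fold of all genes by -0.83, to 0.062, and the RLE factors by -0.87, to 0.024. With either set of factors 2 of the 9 genes, mago and thoc5, were called 2-fold higher and none lower, against 11.7% (TMM) and 10.6% (RLE) of all genes called higher and 15.3% and 15.9% called lower. The median over the 9 genes was 0.49 with TMM and 0.45 with RLE. Scaled to the gene reads, the same 6 genes as on the authors' totals were 2-fold higher and none lower, against 32.1% and 7.13% of all genes. On the authors' totals the 6 genes also passed an exact test on their reads, adjusted over all genes. The test compares the columns and not the conditions, and takes those totals as given. It was also passed by sbr, whose log2 fold of 0.90 was almost the median of all genes. With that test added, 40.6% of all genes were 2-fold higher and 3.21% lower.

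**Figure D1:**
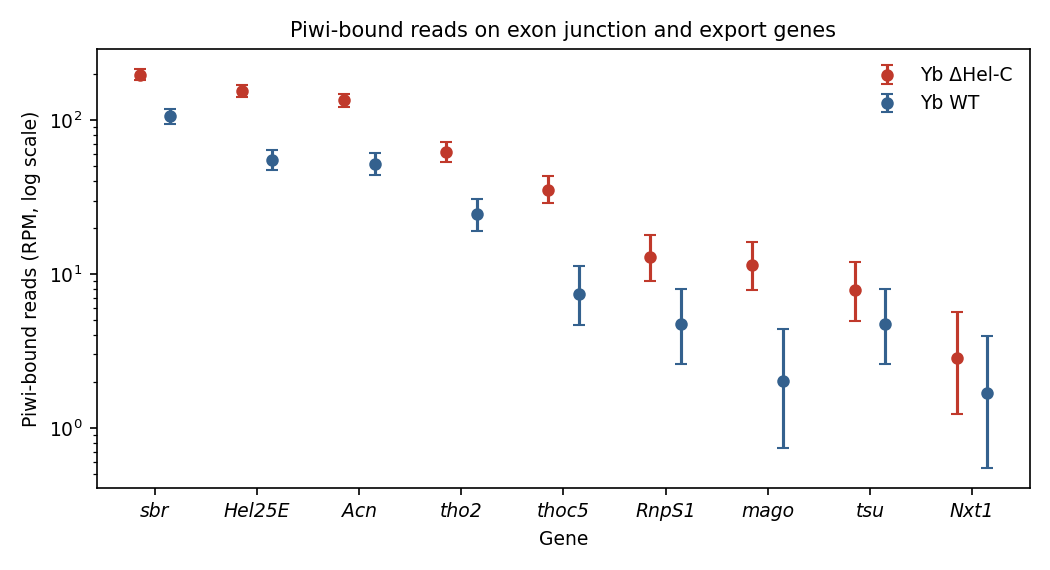
Piwi-bound reads on each of the 9 genes, in RPM on a log axis, with exact 95% counting intervals as bars. Yb ΔHel-C lies above Yb WT for every gene, and the intervals of the columns overlap for tsu and Nxt1.

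Of the core exon junction proteins, mago and tsu form the pair that locks the complex on RNA. The reads on mago (2R, 21128577 to 21129737, dm6) numbered 32 (11.4 RPM) in Yb ΔHel-C and 6 (2.03 RPM) in Yb WT. That is the largest ratio of the 9 genes, 5.62 (interval 2.32 to 16.4), and the width of the interval reflects the 6 reads of Yb WT. With TMM it was 3.05 (1.26 to 8.91) and with RLE 2.96 (1.22 to 8.67). Its partner tsu (2R, 9110799 to 9111578) had 22 reads (7.85 RPM) in Yb ΔHel-C and 14 (4.74 RPM) in Yb WT. The ratio of 1.66 (0.810 to 3.50) includes no change, and the log2 fold turned to -0.14 with TMM and -0.18 with RLE. A difference between the ratios of mago and tsu was not tested.

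Acn and RnpS1 belong to the accessory set that binds the core complex in the nucleus. Acn (2L, 19045355 to 19048817) had 377 reads (134 RPM) in Yb ΔHel-C and 153 (51.8 RPM) in Yb WT, a ratio of 2.60 (2.15 to 3.16). RnpS1 (3R, 9552034 to 9553747) had 36 reads (12.8 RPM) in Yb ΔHel-C and 14 (4.74 RPM) in Yb WT, a ratio of 2.71 (1.43 to 5.44). These ratios lay close to each other although Acn had far more reads, but the interval of RnpS1 is wide and a likeness was not tested. The ratio of tho2, 2.56, also lay close to that of Acn. With TMM both were under 2-fold, at log2 folds of 0.49 for Acn and 0.52 for RnpS1. The ratio of RnpS1 then included no change, at 1.47 (0.773 to 2.95) with TMM and 1.43 (0.752 to 2.87) with RLE. That of Acn did not, at 1.41 (1.16 to 1.71) with TMM and 1.37 (1.13 to 1.66) with RLE.

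The THO subunits tho2 and thoc5 were both called 2-fold higher on the authors' totals, and a difference between their ratios was not tested. The scaffold subunit tho2 (2L, 2137350 to 2145187) had 175 reads (62.4 RPM) in Yb ΔHel-C and 72 (24.4 RPM) in Yb WT, a ratio of 2.56 (1.94 to 3.42). The reads on thoc5 (2R, 23954091 to 23956406) numbered 99 (35.3 RPM) in Yb ΔHel-C and 22 (7.44 RPM) in Yb WT, a ratio of 4.74 (2.97 to 7.91). Like those of mago, Hel25E and Acn, the interval of thoc5 lies wholly above 2-fold on the authors' totals. With TMM its ratio was 2.57 (1.61 to 4.28) and with RLE 2.50 (1.56 to 4.17). The log2 fold of thoc5, 2.17, exceeded that of 95.1% of all genes, and that of mago, 2.24, exceeded 95.5%.

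In the export step, the helicase Hel25E (2L, 5539326 to 5542314) had 433 reads (154 RPM) in Yb ΔHel-C and 163 (55.2 RPM) in Yb WT. Its ratio was 2.80 (2.33 to 3.37), and with TMM 1.52 (1.26 to 1.83). The receptor sbr (X, 10832752 to 10847092) carried the most reads of the 9 in both columns, 552 (197 RPM) in Yb ΔHel-C and 312 (106 RPM) in Yb WT. Its ratio of 1.87 (1.62 to 2.15) gives a log2 fold of 0.90, almost the median of all genes. With TMM its ratio was 1.01 (0.878 to 1.16) and with RLE 0.983 (0.854 to 1.13). The share of sbr among the reads of the 9 genes was 31.8% (29.6 to 34.1, exact binomial) in Yb ΔHel-C and 41.0% (37.5 to 44.6) in Yb WT. This share does not depend on the scaling, and the intervals do not overlap. Without sbr the other 8 genes summed to 422 RPM in Yb ΔHel-C and 152 RPM in Yb WT, a ratio of 2.78 (2.49 to 3.10). The receptor's cofactor Nxt1 (2R, 23811321 to 23811974) had 8 reads (2.85 RPM) in Yb ΔHel-C and 5 (1.69 RPM) in Yb WT. Its ratio of 1.69 (0.487 to 6.55) includes both no change and more than 2-fold in either direction, so a difference was not detectable at this depth.

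**Figure D2:**
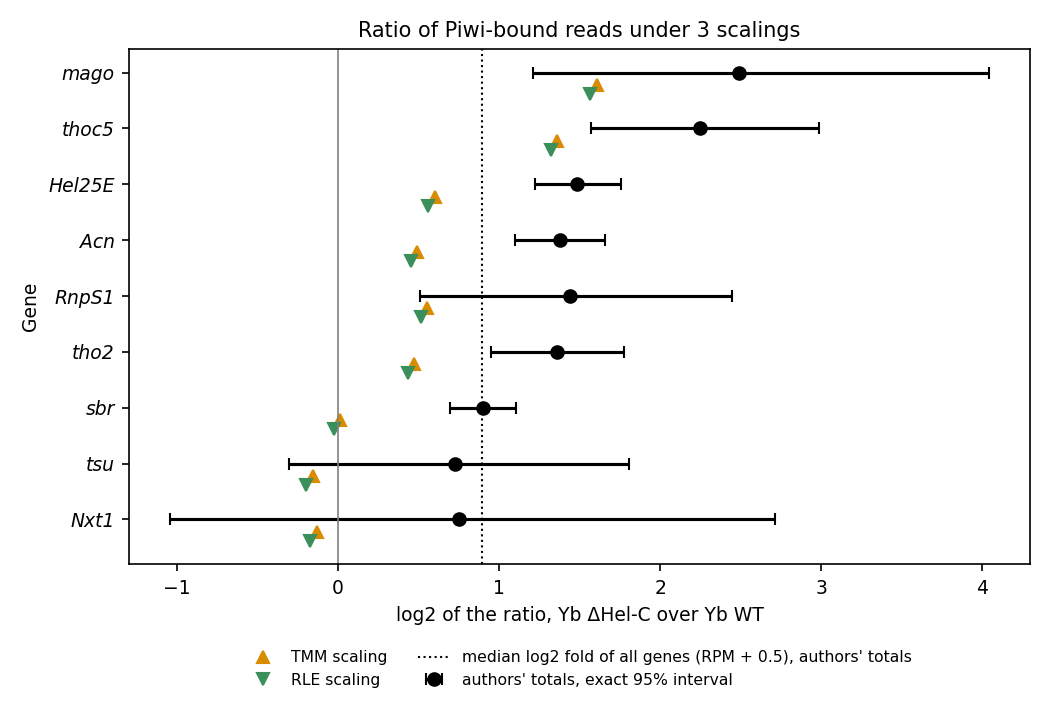
Log2 of the ratio of RPM in Yb ΔHel-C over Yb WT for each gene, with exact 95% counting intervals on the authors' totals (circles) and the same ratio with TMM and RLE factors (triangles). The interval of sbr spans the dotted median of all genes, those of mago, thoc5, Hel25E, Acn and tho2 lie above it, and both triangles of sbr sit next to 0.

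In RPM, the order of the 9 genes was sbr, Hel25E, Acn, tho2, thoc5, RnpS1, mago, tsu and Nxt1 in Yb ΔHel-C. Neighbours whose counting intervals overlapped were Hel25E and Acn, and each step from RnpS1 down to Nxt1. In Yb WT the first 5 places were the same, mago came after tsu, and RnpS1 and tsu were tied at 14 reads. There the intervals of thoc5 and RnpS1 also overlapped. The loci differ in length, and per kilobase of locus, introns included, the order changed. Hel25E was then highest, at 51.7 RPM per kilobase in Yb ΔHel-C and 18.5 in Yb WT, followed by Acn at 38.8 RPM per kilobase in Yb ΔHel-C and 14.95 in Yb WT. On this scale sbr had 13.7 RPM per kilobase in Yb ΔHel-C and 7.36 in Yb WT, and Nxt1, the lowest in Yb ΔHel-C, had 4.36 in Yb ΔHel-C and 2.59 in Yb WT. In Yb WT the lowest level per kilobase was that of mago, at 1.75 RPM, against 9.83 RPM in Yb ΔHel-C.

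Set beside genes of like abundance, 2 of the 4 that averaged 1 to 10 RPM (mago and RnpS1, but not tsu and Nxt1) were 2-fold higher, against 41.2% of the 3025 genes in that range. All 3 from 10 to 100 RPM (Acn, tho2 and thoc5) were 2-fold higher, against 54.9% of 3209 genes. From 100 to 1000 RPM, Hel25E was 2-fold higher and sbr was not, against 30.6% of 1224 genes. With so few genes in each range, these counts are a description and do not set the 9 genes apart from others.

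**Figure D3:**
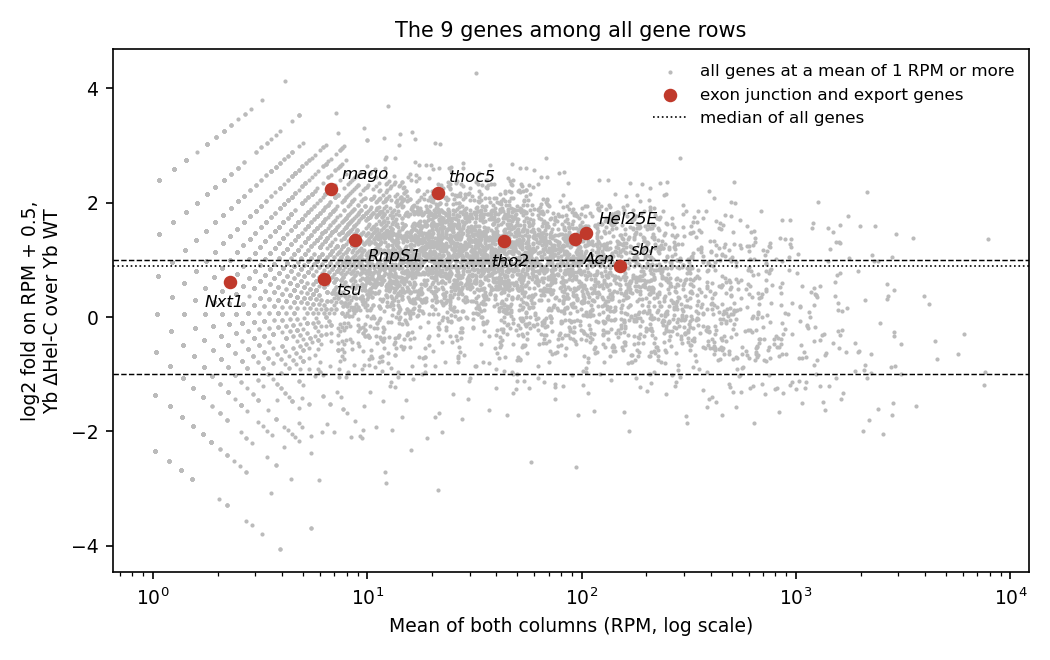
Log2 fold on RPM + 0.5 (Yb ΔHel-C over Yb WT) against the mean RPM of both columns on a log axis, for all 7577 genes (grey) and the 9 genes (red), with dashed lines at 2-fold. The 9 lie within the cloud of all genes, with mago and thoc5 near its upper edge and sbr on the median.

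The loci of 6 of the 9 genes overlap a further gene in the RefSeq annotation of Release 6. Among genes that averaged 1 RPM or more and were placed there, 6904 in all, 51.6% do so. No source used here says whether reads were counted by strand, so such reads may be shared. The end of mago overlaps Magi by 275 bases, and Magi had 16.8 RPM in Yb ΔHel-C and 12.2 RPM in Yb WT. RnpS1 overlaps CG9386 by 52 bases, and that gene had 30.0 RPM in Yb ΔHel-C and 12.5 RPM in Yb WT. Overlaps of thoc5 with CG16787, tsu with Mys45A and Nxt1 with CG5543 are 72 to 78 bases long. The locus of sbr spans 3 other genes, of which CG32669 went the other way, with 2.85 RPM in Yb ΔHel-C and 13.9 RPM in Yb WT. Hel25E, Acn and tho2 overlap no annotated gene.

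Of the 37 remaining genes on the lists of these pathways, 33 had a mean of at least 1 RPM, and 21 of these were called 2-fold higher, 1 lower and 11 neither on the authors' totals, against the 44.9% and 4.98% of all genes given above. Their median log2 fold was 1.13, and that of all genes 0.89. With TMM 4 were higher and 1 lower, and with RLE 3 were higher and 1 lower, where 11.7% and 10.6% of all genes were higher. The counts for single lists that follow rest on few genes each and are read against these same shares. The 4 genes below the minimum were Ref2 and nxf4, listed at 0 in both columns, tex with 2 reads in each, and e(y)2 with 0 reads in Yb ΔHel-C and 5 in Yb WT.

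Of the other core exon junction genes, btz, whose protein joins the complex in the cytoplasm, had 44.6 RPM in Yb ΔHel-C and 20.6 RPM in Yb WT, a ratio of 2.16 (1.58 to 2.98). The row CG7483, the helicase that clamps the complex on RNA, was named here after its value was seen, with 31 reads in Yb ΔHel-C and 12 in Yb WT. With mago, btz and CG7483, 3 of the 4 core genes were 2-fold higher, against 44.9% of all genes. Of the 5 accessory genes 4 were 2-fold higher, including Bin1, the SAP18 partner of Acn and RnpS1, at 19.6 RPM in Yb ΔHel-C and 6.43 RPM in Yb WT (3.05, 1.78 to 5.44). The splicing factor gene ncm stood just under, at 39.6 RPM in Yb ΔHel-C and 20.0 RPM in Yb WT. With TMM, 1 gene of each list was called higher, mago in the core list and Pym, named after its value was seen, in the accessory list.

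Nonsense-mediated decay degrades mRNA with a premature stop codon. Of its 6 genes 3 were called 2-fold higher and none lower, near the 44.9% and 4.98% of all genes, with a median log2 fold of 1.04 beside 0.89 for all genes. Upf2 had 67.8 RPM in Yb ΔHel-C and 29.4 RPM in Yb WT (2.30, 1.78 to 3.00), and Smg5 had 66.0 RPM in Yb ΔHel-C and 29.8 RPM in Yb WT (2.22, 1.71 to 2.89). The third, Upf3, named after its value was seen, rested on 19 reads in Yb ΔHel-C and 2 in Yb WT. The endonuclease gene Smg6, with the most reads of the list, had 194 RPM in Yb ΔHel-C and 134 RPM in Yb WT (1.45, 1.27 to 1.65). Its log2 fold turned to -0.35 with TMM and -0.39 with RLE.

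Of the 5 THO genes above the minimum, 4 were 2-fold higher and thoc6, the one with the most reads, was not, at 110 RPM in Yb ΔHel-C and 65.0 RPM in Yb WT. With TMM or RLE the log2 fold of thoc6 turned, to -0.12 and -0.16. Besides tho2 and thoc5, the genes called were Hpr1, with 29 reads in Yb ΔHel-C and 8 in Yb WT, and thoc7, with 9 in Yb ΔHel-C and 2 in Yb WT, both named after their values were seen. The ratio of thoc7, 4.74 (0.982 to 45.1), includes no change. Of the 6 genes above the minimum on the list of the export helicase, its adaptors and the receptor, 3 were 2-fold higher, 1 lower and 2 neither. Ref1, the adaptor that links the helicase to the receptor, had 117 RPM in Yb ΔHel-C and 53.1 RPM in Yb WT (2.20, 1.82 to 2.68). The gene xmas-2 of the TREX-2 complex, which ties transcription to the nuclear pore, had 61.4 RPM in Yb ΔHel-C and 16.6 RPM in Yb WT (3.70, 2.68 to 5.19). Dbp80, a helicase that acts at the pore, had 28.9 RPM in Yb ΔHel-C and 8.80 RPM in Yb WT (3.28, 2.09 to 5.32). Of the 3 TREX-2 genes above the minimum 2 were called higher, and of the 3 genes for release at the pore 1 was. Both xmas-2 and Dbp80 were under 2-fold with TMM, at log2 folds of 0.99 and 0.81.

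The relatives of sbr went in different directions. Nxf3, which is known to export piRNA precursors in the germline, was the only one of the 33 genes called 2-fold lower. It had 58 reads (20.7 RPM) in Yb ΔHel-C and 203 (68.7 RPM) in Yb WT, 3.32-fold lower (2.47 to 4.53), and stayed lower with TMM (log2 fold -2.58) and RLE (-2.62). Its locus overlaps ssp2. The other relative with reads, nxf2, had 180 RPM in Yb ΔHel-C and 78.2 RPM in Yb WT (2.30, 1.97 to 2.70). The interval of Nxf3 overlaps neither that of nxf2 nor that of sbr. The germline markers orb and aub were called lower too, while on the authors' totals the other germline markers above the minimum were not. With TMM or RLE bam, with 4 reads in Yb ΔHel-C and 6 in Yb WT, was called lower as well. The part of the germline markers in the value of Nxf3 was not tested.

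All 3 genes listed as partners of Nxt1 in silencing by Piwi were 2-fold higher on the authors' totals and none with TMM or RLE. They were nxf2, ctp (2.22, 1.92 to 2.57) and Panx, which had 35.0 RPM in Yb ΔHel-C and 10.2 RPM in Yb WT (3.44, 2.27 to 5.37). Of the 8 cap-binding and SR protein genes 5 were 2-fold higher and none lower, against 44.9% and 4.98% of all genes, with a median log2 fold of 1.18 beside 0.89. Ars2, a partner of the nuclear cap-binding complex, had the most reads of any gene on the lists of these pathways, 1437 RPM in Yb ΔHel-C and 440 RPM in Yb WT (3.26, 3.07 to 3.48). B52 (2.45, 2.16 to 2.79) and the cap-binding gene Cbp80 (2.12, 1.57 to 2.89) were also called. With TMM all 3 were under 2-fold, at log2 folds of 0.82, 0.41 and 0.20.

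**Figure D4:**
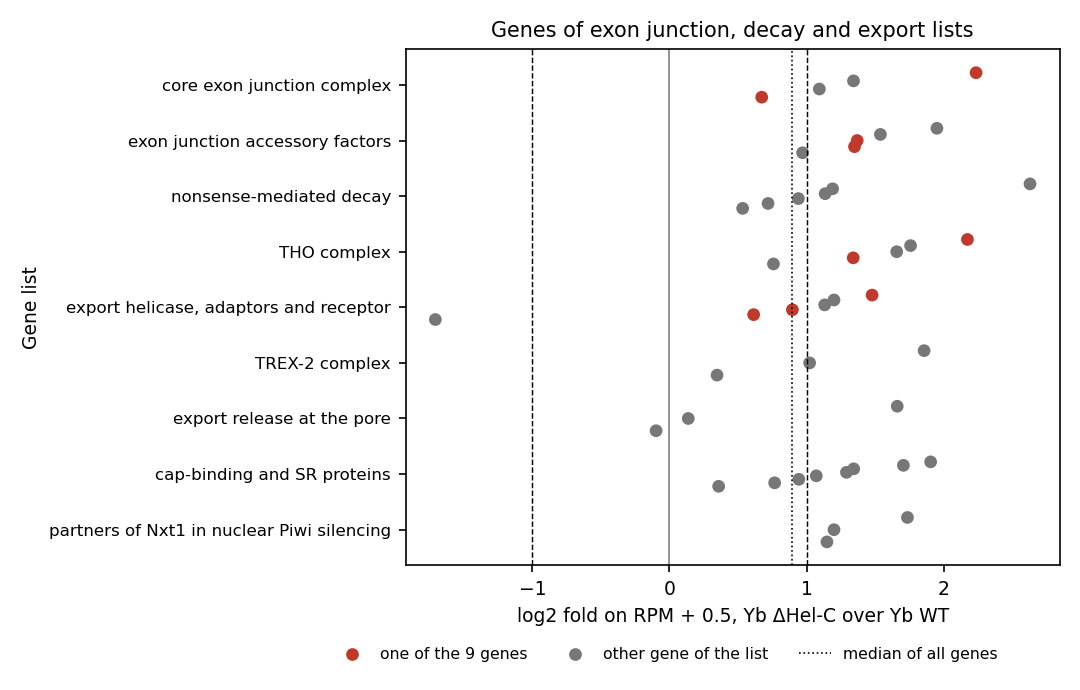
Log2 fold on RPM + 0.5 (Yb ΔHel-C over Yb WT) of each gene with a mean of at least 1 RPM, in 9 lists, with the 9 genes in red and others in grey. Most points lie above 0 on the authors' totals, around the dotted median of all genes, and Nxf3 alone lies below the lower 2-fold line.

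The 2 transcripts listed as known to need the exon junction complex for their splicing differed in direction. Reads on piwi were 1998 RPM in Yb ΔHel-C and 873 RPM in Yb WT, 2.29 times as many (2.19 to 2.40), and under 2-fold with TMM (log2 fold 0.31). Any RNA of a Flag-Piwi construct in these values cannot be told apart from endogenous RNA. Reads on rl, which encodes the MAP kinase, were 33.5 RPM in Yb ΔHel-C and 79.5 RPM in Yb WT, 2.37-fold lower (1.86 to 3.05), with log2 folds of -2.11 with TMM and -2.15 with RLE. These are reads bound to Piwi and say nothing of how either transcript was spliced.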

How the data were processed

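The authors deposited 1 table with a value column for each group, in RPM, a unit read from the values since the header names none. Per the submitters' processing notes, STAR and HTSeq were used with BDGP6 and dm6, in roles not stated. No source used here gives the strand setting, the treatment of multiply mapped reads, or whether the 2 libraries of a group were pooled. Dividing each column by the value of 1 read gave whole numbers, within 0.01 read, for 100% of its non-zero values. No edgeR test could be run on them with 1 column per group (0 columns of other samples). As an alternative, read counts of the columns were compared by an exact binomial test with Benjamini-Hochberg adjustment (threshold 0.05), which covers counting error alone, and with 2-fold it called 3075 genes higher and 243 lower.

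Ratios carry exact conditional intervals (scipy 1.17.1). Scaling factors came from edgeR 4.0.16. The scripts were tested on simulated data. Positions and locus lengths are from RefSeq, Release 6. The members and lists were chosen with earlier results of these data known. Besides the members, genes named are those of each list past 2-fold with a mean of at least 10 RPM (at most 3) and the one with the most reads. Other genes of the pathway lists were named after their values were seen. They are marked so, except ncm and the genes below the minimum.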

Additional observations from a re-analysis of the deposited data

How the results depend on the processing

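No paired analysis was possible because each group has a single value column, and leaving out single libraries could not be run for the same reason. The 6 genes called 2-fold higher among the 9 became 2 with TMM and 2 with RLE. The ratio of the sums over all 9 genes was 1.30 with TMM, 1.27 with RLE and 1.95 scaled to gene reads. Without sbr, on the authors' totals, it was 2.78. The other pathway genes called higher were 4 with TMM, 3 with RLE and 12 scaled to gene reads, and 2 were called lower, Nxf3 and e(y)2, with no minimum level. Over all genes, 3403 were called higher and 377 lower on the authors' totals. Those called higher were 886 with TMM, 803 with RLE and 2158 at a mean of 10 RPM, where fewer genes were tested. Those called lower were 1163 with TMM, 1208 with RLE, 743 with no minimum, 202 with 1 RPM in both columns, 106 at a mean of 10 RPM, 243 when the exact test was also asked for and 683 at 1.5-fold. The 6 genes also passed 2-fold with pseudocounts of 0.1 and 1 RPM. Which scaling is right was not tested. Depth limits tsu (22 reads in Yb ΔHel-C, 14 in Yb WT) and Nxt1 (8 in Yb ΔHel-C, 5 in Yb WT), whose intervals include no change. It also limits mago (32 reads in Yb ΔHel-C, 6 in Yb WT), whose ratio has a wide interval, 2.32 to 16.4.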
